A study of Homo sapiens with 12 samples.

Results

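PDE4D, a gene of 1.52 Mb on the minus strand of chromosome 5, was examined in SW620 and SW480 through the regions that chromatin immunoprecipitation followed by sequencing (ChIP-seq) had called there. The locus was the stretch from 58100000 to 59834000 of build hg19, which holds the gene at 58264865 to 59783925, 165 kb beyond its 3′ end and 50.1 kb before its 5′ end. Every region overlapping that stretch was taken, which gave 116 of the 262931 regions in all lists together, 50 from SW620 and 66 from SW480. The locus was chosen by the called regions themselves, since a group of wide acetylated regions there was already known to be absent from the SW620 list, so the contrast between the lines is given as a description. SW620 is a human colorectal adenocarcinoma cell line labelled Dukes' type C, and SW480 is one labelled Dukes' type B. Both were grown in DMEM with serum and were untreated. Each line gave 1 library for each of H3K4me3, H3K4me2, H3K27ac, H3K36me3 and FOXA2, and its own input library. With 1 library per line and antibody there was no replicate spread, so the lines are compared by description, without a test.

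PDE4D encodes a phosphodiesterase that breaks down cyclic AMP, the second messenger that activates protein kinase A. The gene is known for many alternative promoters spread over its length. Starts near the 5′ side give long enzyme forms with regulatory domains that protein kinase A can phosphorylate, and starts near the 3′ side give short forms that lack part of these domains, while the catalytic exons at the 3′ end are common to them. H3K4me3 marks promoters, H3K4me2 promoters and enhancers, and H3K27ac those that are active. H3K36me3 is laid down over transcribed gene bodies, and FOXA2 is a forkhead factor of endoderm and liver that can bind enhancers. Positions below are hg19 coordinates counted from 1, or distances in kb from the annotated 5′ end towards the 3′ end.

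RefSeq holds 8 promoter stretches for PDE4D on build GRCh38.p14, and 3 of them are shown because they give the range of base composition among the alternative starts. Each run is the 250 bases before a start, on the minus strand, with CpG dinucleotides in capitals. Numbers count the stretches from the 5′ side of the gene.
Stretch 1 (chr5:60496287-60496536): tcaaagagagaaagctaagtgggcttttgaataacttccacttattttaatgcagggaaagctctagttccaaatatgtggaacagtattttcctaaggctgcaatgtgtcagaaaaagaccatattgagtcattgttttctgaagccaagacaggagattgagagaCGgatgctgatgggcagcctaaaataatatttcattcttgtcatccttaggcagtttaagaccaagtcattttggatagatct
Stretch 3 (chr5:59893727-59893976): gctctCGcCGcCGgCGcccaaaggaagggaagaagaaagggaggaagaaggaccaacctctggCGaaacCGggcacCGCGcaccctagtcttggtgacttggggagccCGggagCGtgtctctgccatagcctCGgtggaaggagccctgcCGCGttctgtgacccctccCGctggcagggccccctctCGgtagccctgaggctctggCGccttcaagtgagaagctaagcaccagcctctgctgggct
Stretch 7 (chr5:59039477-59039726): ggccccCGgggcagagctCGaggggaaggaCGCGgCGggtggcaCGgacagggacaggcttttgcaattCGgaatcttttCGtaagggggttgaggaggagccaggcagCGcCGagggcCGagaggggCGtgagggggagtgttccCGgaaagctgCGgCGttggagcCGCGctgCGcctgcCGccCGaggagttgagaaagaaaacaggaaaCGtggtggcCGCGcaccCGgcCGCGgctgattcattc
Stretch 1 had 1 CpG, stretch 3 had 16 and stretch 7 had 26, and the other 5 had between 1 and 5. Over 35114 promoter stretches of the same length the median was 11 CpG, and 80.4% had fewer than stretch 7. The forkhead motif TGTTTAC, on either strand, was in none of the 8 and in 2.98% of all stretches. The cyclic AMP response element TGACGTCA was likewise in none of the 8 and in 1.65% of all stretches. No hg19 genome was used here, so these stretches were not placed on the called regions. The RefSeq gene table (GRCh38.p14) also lists other genes overlapping PDE4D, among them the non-coding RNA genes PDE4D-AS1, PART1 and MIR582. Called regions inside PDE4D were not assigned among these genes.

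The promoter mark was called at the same 3 places in SW620 and SW480, and at 4 more in SW480. H3K4me3 had 3 regions in SW620 and 7 in SW480. All 3 SW620 regions overlapped an SW480 region by at least 1 bp, so 0 were SW620-only, where 6.85% of the whole SW620 list is. In SW480, 4 of 7 had no SW620 region, against 17.1% of the whole SW480 list. None lay at the annotated 5′ end in either line. Where a place is called a promoter below, it is named by its H3K4me3 alone, as no annotated start was placed on it.

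The shared H3K4me3 region farthest from the 3′ end lay in the middle of the gene, 719 kb from the 5′ end in SW620 and 720 kb in SW480. It spanned 59062655 to 59066251 in SW620 and 59061418 to 59065440 in SW480, widths of 3.60 and 4.02 kb. The SW480 region covered 77.5% of the SW620 one, and both lines also had H3K4me2 and H3K27ac there. This was the place where the lines were closest.

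A shared H3K4me3 region near the 3′ end differed in width. In SW620 it ran from 58333437 to 58336747, which is 3.31 kb, and in SW480 from 58330152 to 58337218, which is 7.07 kb. The SW620 region lay wholly inside the SW480 one and covered 46.9% of it. By width the SW480 region was number 62 of 18296 in its list, while the SW620 region was number 2061 of 16315.

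The remaining shared place was covered at 58422723 to 58424269 in SW620 and at 58423680 to 58424680 in SW480, which is 1.55 and 1.00 kb. In SW480 a region of the same width lay just beside it, from 58420006 to 58421006, with no SW620 H3K4me3 region on it. The other SW480-only regions were at 58399984 to 58400984, at 58450801 to 58453587, and in the flank beyond the 3′ end at 58186724 to 58187724. Of the 7 SW480 regions, 4 were 1001 bp wide, the smallest width in the list, a width shared by 12.1% of the list. Those 4 include 3 of the 4 SW480-only ones. The region at 58450801, of 2.79 kb, was the SW480-only one above that size. When lists of equal length were compared, keeping the widest regions of the longer list with equal widths taken in list order, 1 SW480 region and 1 SW620 region were without a partner. The SW620 H3K4me3 library had 12791745 tags with 52.0% in regions and the SW480 library 16400013 tags with 73.0% in regions; their part in the count was not tested.

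**Figure D1:**
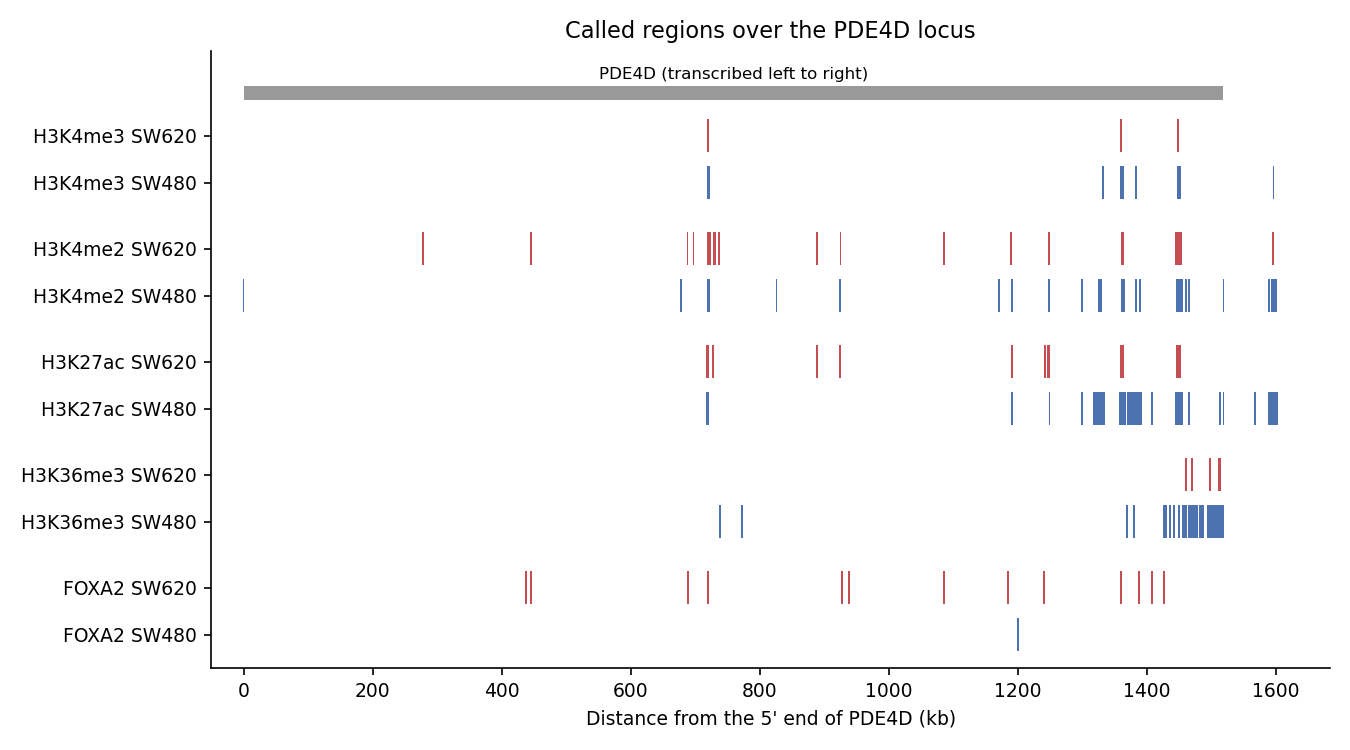
Called regions over the PDE4D locus, by antibody and line, against the distance from the 5′ end of the gene in kb, with SW620 in red and SW480 in blue and the gene as a grey bar. Regions narrower than 3 kb are drawn 3 kb wide, and SW480 H3K27ac and H3K36me3 crowd at the 3′ end while 13 SW620 FOXA2 peaks are spread from 438 to 1427 kb.

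SW620 carried less acetylated chromatin over the locus than SW480. H3K27ac covered 30.9 kb in 11 SW620 regions and 93.7 kb in 16 SW480 regions, a ratio of SW620 to SW480 of 0.330. Over the whole lists that ratio was 0.870. Line-only regions were 5 of 11 in SW620, against 26.8% of its whole list, and 11 of 16 in SW480, against 32% of its whole list. Overlapping regions of a list were counted apart. Of the 5 in SW620, the region at 58536385 to 58537649 overlapped a shared SW620 region at 58534031 to 58536851. Sequence acetylated in both lines made up 17.3% of all acetylated sequence of the locus and 48.2% over the genome.

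The length in SW480 came from 5 regions of at least 10 kb, which together held 74.0 kb, and SW620 had none of that width. Such regions are rare, with 162 of 22236 in the SW620 list (0.729%) and 220 of 23493 in the SW480 list (0.936%). The SW620 widths ran from 1.00 to 6.52 kb with a median of 2.82 kb, and the SW480 widths from 1.00 to 18.7 kb with a median of 1922 bp. The medians thus stood in the opposite order to the widest regions.

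The widest SW480 region, from 58390639 to 58409325, was 18.7 kb and ranked 33 of 23493. No SW620 H3K27ac or H3K4me3 region touched it, and it held 1 H3K4me3 and 2 H3K4me2 regions of SW480. The next, from 58448166 to 58466384, was 18.2 kb and also had no SW620 H3K27ac, with 1 H3K4me3 and 2 H3K4me2 regions of SW480. A region of 14.4 kb, from 58180992 to 58195408, lay outside the gene in the 3′ flank. It held 4 H3K4me2 regions and 1 H3K4me3 region of SW480, with no SW620 H3K27ac, though 1 SW620 H3K4me2 region was inside it. RAB3C is the next coding gene on that side in the RefSeq gene table (GRCh38.p14), and the region was assigned to neither gene.

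Both other wide SW480 regions had a narrower SW620 region within them. The one from 58327583 to 58339803, of 12.2 kb, sat on the wide H3K4me3 promoter, and SW620 acetylation covered 55.6% of it. The one from 58415606 to 58426014, of 10.4 kb, was covered to 51.3% in SW620. The matching SW620 regions, at 58331385 to 58337905 and 58419297 to 58424631, were 6.52 and 5.34 kb wide and were the widest of that line in the locus. They ranked 574 and 982 of 22236. A further SW480 region, from 59062220 to 59066816 on the mid-gene promoter, was 4.60 kb, and its SW620 partner from 59062696 to 59066708 was 4.01 kb.

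SW620 had acetylated regions of its own between those promoters. Its next widest were at 58540039 to 58543671, 3.63 kb with 1 SW620 FOXA2 peak and no SW480 region of any mark, and at 58591505 to 58594859, 3.36 kb. At 58591505 an SW480 region of 1.00 kb covered 29.8% of the SW620 one. Regions without H3K4me3 of the same line were 8 of 11 in SW620 and 10 of 16 in SW480. The 5 SW620-only regions all lacked H3K4me3, and 3 of the 11 SW480-only regions carried it. Those 3 were 14.4 to 18.7 kb wide. The shares of the whole H3K27ac lists without H3K4me3 are not given here. These counts are therefore not read as a trait of the locus or of a line.

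Joined over gaps of up to 10 kb, the acetylated regions formed 7 clusters in SW620 and 11 in SW480. The longest SW480 cluster, from 58390639 to 58426014, spanned 35.4 kb with 4 regions, 3 H3K4me3 regions of SW480 and 2 SW620 FOXA2 peaks, and SW620 acetylation covered 15.1% of it. The longest SW620 cluster, from 59055422 to 59066708, spanned 11.3 kb with 2 regions, and 39.8% of it was acetylated in SW480. The H3K27ac libraries differed in the share of tags in regions, 27.5% of 47867295 tags in SW620 and 58.5% of 34224728 in SW480. Its part in these widths was not tested. With lists of equal length the covered length was 30.9 kb in SW620 and 89.7 kb in SW480.

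**Figure D2:**
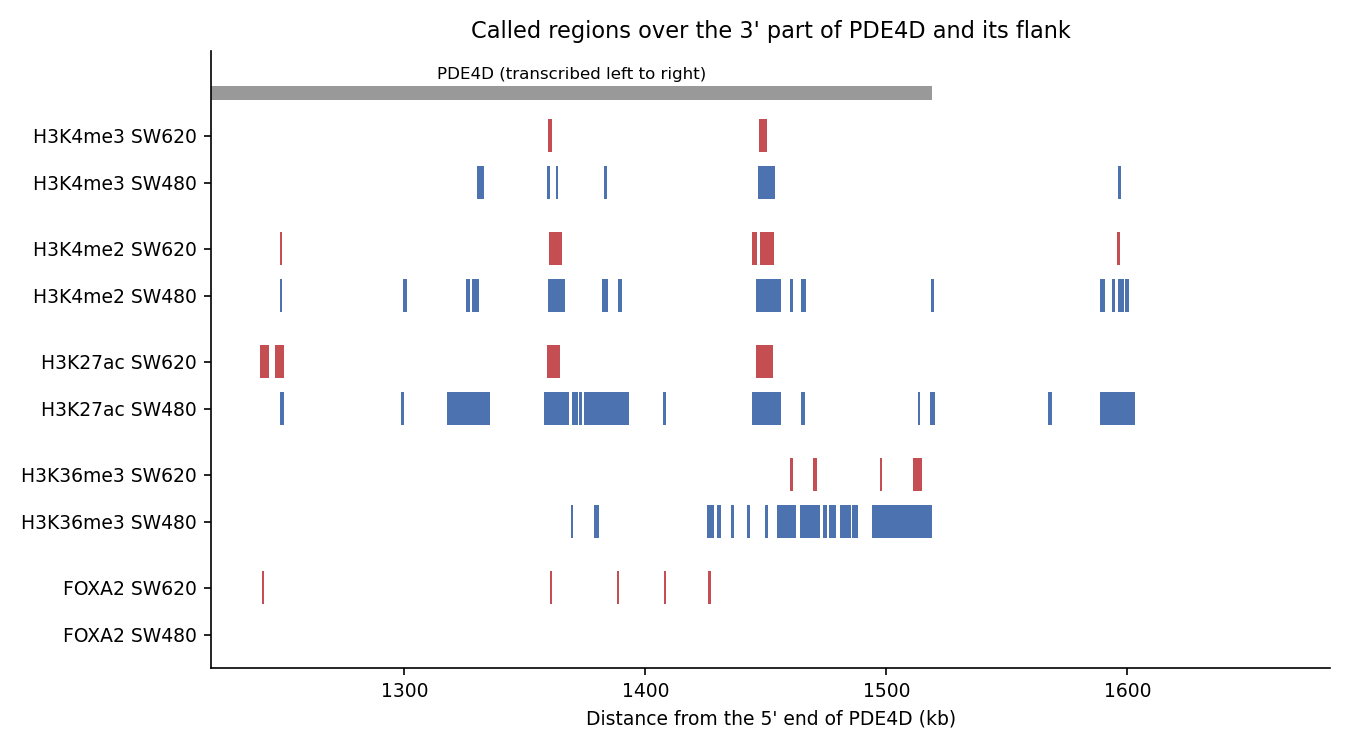
Called regions over the 3′ part of PDE4D and its flank by antibody and line, against the distance from the 5′ end in kb, with FOXA2 peaks drawn 1 kb wide. The 5 wide SW480 H3K27ac regions, of 10.4 to 18.7 kb, have narrower SW620 regions at 2 of their places, and SW480 H3K36me3 fills the end of the gene.

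**Figure D3:**
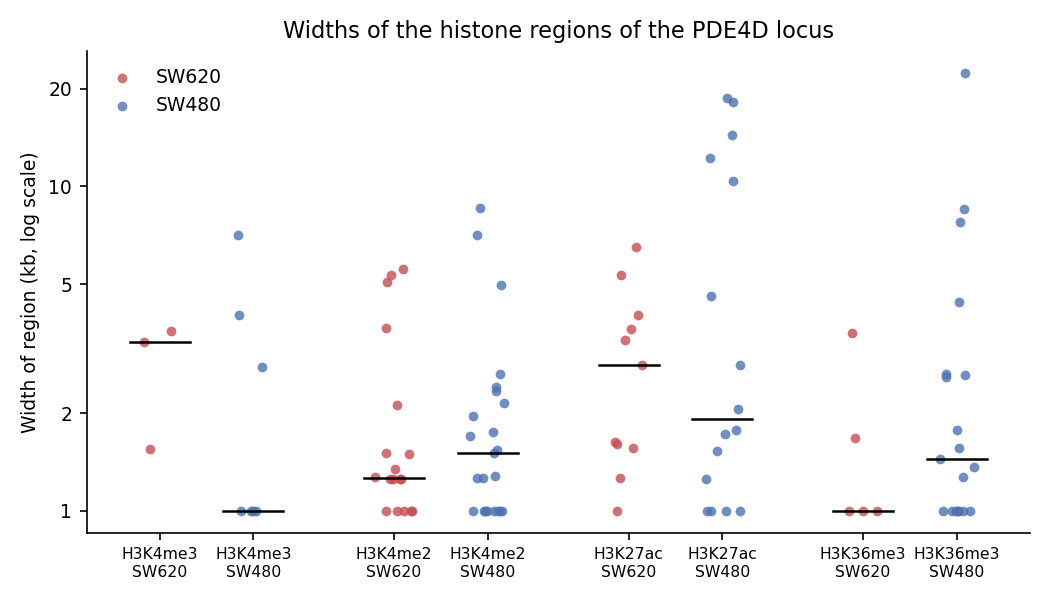
Width in kb on a log scale of each histone region of the locus by mark and line, SW620 in red and SW480 in blue, with black bars at the medians. SW480 H3K27ac has 5 points of 10 kb or more and SW480 H3K36me3 reaches 22.4 kb, while no SW620 region passes 6.52 kb.

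H3K36me3, the mark of transcribed gene bodies, had the lowest SW620 to SW480 ratio of covered length among the 4 histone marks. It covered 7.24 kb in 5 SW620 regions and 64.3 kb in 19 SW480 regions, a ratio of 0.113 where the whole lists gave 0.934. All 5 SW620 regions overlapped SW480 ones, so 0 were SW620-only against 27.9% of the whole list. In SW480, 15 of 19 had no SW620 region, against 34.3% of its list. With lists of equal length, 0 SW620 and 10 SW480 regions were line-only. The smallest width, 1001 bp, was that of 3 of 5 regions in SW620 and 7 of 19 in SW480. It was that of 27.8% of the whole SW620 list and 28.1% of the SW480 list. Of the gene, 0.477% was covered in SW620 and 4.23% in SW480. The H3K36me3 libraries had 46006580 tags with 35.2% in regions in SW620 and 37446361 tags with 32.8% in regions in SW480; their part in the difference was not tested.

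Most of this mark lay between the 3′ end and the promoter at 58330152. From the 3′ end to the start of that SW480 H3K4me3 region, a span of 65.3 kb, H3K36me3 covered 11.1% in SW620 and 79.8% in SW480. The widest SW480 region, from 58267523 to 58289933, was 22.4 kb and ranked 230 of 52664. The widest in SW620, from 58269258 to 58272782, was 3.53 kb and lay inside it. The other 4 SW620 regions were between 1.00 and 1.68 kb.

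Farther towards the 5′ side only SW480 had H3K36me3. Between the wide promoter and the H3K4me3 region at 58399984 it covered 6.43 kb in SW480, and between that and the region at 58420006 it covered 2.78 kb. On the 608 kb between the region at 58450801 and the mid-gene promoter it covered 2.00 kb in SW480, in 2 regions of 1001 bp. From the mid-gene promoter to the annotated 5′ end, 718 kb, it covered 0 kb in SW620 and 0 kb in SW480. In SW620 no H3K36me3 region lay on the 5′ side of position 58323857.

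**Figure D4:**
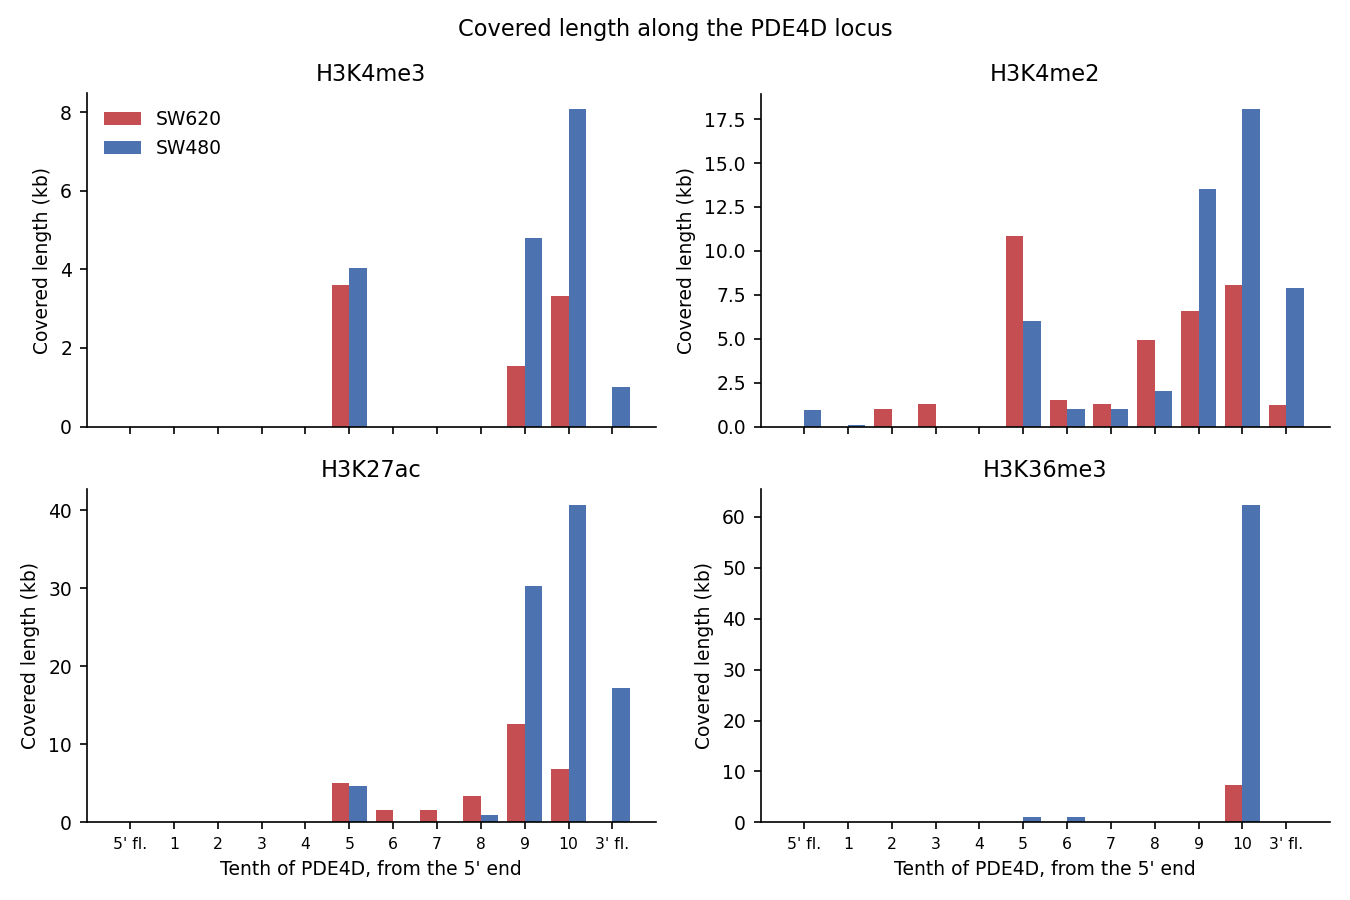
Length covered by each histone mark, in kb, in the 10 equal segments of PDE4D from the 5′ end and in its flanks (5′ fl. and 3′ fl.), with SW620 red and SW480 blue. Segment 10 holds 7.24 kb of H3K36me3 in SW620 and 62.3 kb in SW480, while in segment 5 H3K4me2 covers 10.9 kb in SW620 and 5.98 kb in SW480.

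For H3K27ac and H3K4me2 the contrast turned along the gene. To place it, the gene was divided into 10 equal segments of 152 kb, and the last 2 were set against the first 8, a division made after the values were seen. In the last 2 segments H3K27ac covered 19.4 kb in SW620 and 70.9 kb in SW480, and H3K4me2 14.6 kb in SW620 and 31.6 kb in SW480. In the first 8 H3K27ac covered 11.5 kb in SW620 and 5.60 kb in SW480, and H3K4me2 20.8 kb in SW620 and 10.1 kb in SW480. H3K4me3 and H3K36me3 did not turn. In the last 2 segments H3K4me3 covered 4.86 kb in SW620 and 12.9 kb in SW480, and H3K36me3 7.24 kb in SW620 and 62.3 kb in SW480. In the first 8 H3K4me3 covered 3.60 kb in SW620 and 4.02 kb in SW480, and H3K36me3 0 kb in SW620 and 2.00 kb in SW480. The 3′ flank went with the 3′ segments, with 0 kb of H3K27ac in SW620 and 17.3 kb in SW480.

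H3K4me2 also marks sites without acetylation. Its line-only regions within the gene are part of the lengths just given, so their places restate the turn and add no separate view of it. The locus had 18 H3K4me2 regions in SW620 and 23 in SW480. Line-only regions were 9 of 18 in SW620, against 30.2% of the whole list, and 16 of 23 in SW480, against 23.2%. All 9 SW620-only regions had their centre in the first 8 segments. Of the SW480-only regions, 4 overlapped the gene on the 5′ side of position 58568677, where the last 2 segments begin, 9 overlapped it on the 3′ side, and 3 lay wholly in the 3′ flank. The 4 include a region across the annotated 5′ end and the 9 a region across the 3′ end, both with their centres just outside the gene. With lists of equal length, 6 SW620 and 16 SW480 regions were line-only. The smallest width, 1001 bp, was that of 5 of 18 regions in SW620 and 8 of 23 in SW480. It was that of 16.1% of the whole SW620 list and 15.1% of the SW480 list. The H3K4me2 libraries had 23671100 tags with 50.7% in regions in SW620 and 20958795 with 45.8% in SW480. Their part in these counts was not tested.

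The SW620-only regions were narrow, 1.00 to 1.51 kb, and mostly without acetylation. Of the 9, 7 had no SW620 H3K27ac, and 3 held an SW620 FOXA2 peak. Over the locus, H3K4me2 regions with neither H3K4me3 nor H3K27ac of their own line were 8 of 18 in SW620 and 6 of 23 in SW480. No whole-list share is given for this class, or for acetylation and FOXA2 among SW620-only regions. The counts are therefore not read as a trait of the locus. A group of SW620 regions stood around the mid-gene promoter, where segment 5 held 6 H3K4me2 regions in SW620 and 2 in SW480. The 5′ end itself was marked in SW480 alone, by a 1001 bp H3K4me2 region from 59783842 to 59784842 without H3K4me3 or H3K27ac. That region was assigned neither to PDE4D nor to an overlapping gene. No SW620 region of any antibody lay in segment 1 or in the 5′ flank.

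FOXA2 had 13 peaks in SW620 and 1 in SW480, and no peak was common to the lines. The absence of shared peaks is the usual state of these lists, since 98.1% of all SW620 peaks and 95.5% of all SW480 peaks have no partner. Over the whole lists there were 2.38 times as many peaks in SW620 as in SW480. With lists of equal length, the first-listed 5207 peaks of each line, the locus had 3 peaks in SW620 and 1 in SW480. Neither the labels nor the headers say what sets the order of a list, so those 3 are the first listed and not known to be the strongest. The SW620 peaks are 319 bp wide and the SW480 peak 127 bp, as the caller fixed 1 peak size per library.

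A pair of the SW620 peaks lay on H3K4me3 regions of SW620. The peak from 59064517 to 59064835, in the mid-gene promoter, overlapped H3K4me3, H3K4me2 and H3K27ac of both lines. The peak from 58422891 to 58423209 lay in H3K4me3, H3K4me2 and H3K27ac of SW620, and in H3K4me2 and H3K27ac of SW480, 0.471 kb from the nearest SW480 H3K4me3 region.

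Other SW620 peaks lay on chromatin that only one line had marked. The peak from 58542351 to 58542669 was in the SW620-only acetylated region of 3.63 kb. Those at 58697483 to 58697801, 59095310 to 59095628 and 59337827 to 59338145 were each on an SW620-only H3K4me2 region without H3K27ac. Conversely, the peak from 58395109 to 58395427 lay in the 18.7 kb acetylated region of SW480 and on SW480 H3K4me2, where SW620 had no histone region. The peak from 58375722 to 58376040 lay on an SW480 H3K27ac region of 1.00 kb.

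The remaining 5 peaks had none of H3K4me3, H3K4me2 and H3K27ac in either line. They were at 58357159 to 58357477, 58599018 to 58599336, 58844734 to 58845052, 58856369 to 58856687 and 59345888 to 59346206. The first of these was on SW480 H3K36me3. The single SW480 peak, from 58583495 to 58583621, was also on no histone region, and the nearest SW620 peak was 15.4 kb away.

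In shares, 5 of 13 SW620 peaks (38.5%) were on SW620 H3K4me2, against 51.7% of the whole list, and 3 (23.1%) on SW620 H3K27ac, against 33.9%. On SW480 H3K27ac there were 4 (30.8%), against 24.3% of the list. On SW620 H3K4me3 there were 2 (15.4%), against 13.1% of the list. For the 5 peaks with none of H3K4me3, H3K4me2 and H3K27ac in either line, no share of the whole list is given. These are counts of few peaks, and neither a likeness to the list nor a difference from it is read from them. The FOXA2 libraries had 2.25% of 18036456 tags in peaks in SW620 and 0.590% of 19473583 in SW480, and the part of this in the count was not tested.

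The locus was last set beside the rest of the genome, as windows of the same length laid end to end along each chromosome. There were 1309 windows with at least 10 kb of H3K27ac in SW620 and SW480 together, not counting those at the locus. The measure was the log2 ratio of covered length, SW620 plus 1 kb over SW480 plus 1 kb. For H3K36me3 the locus had -2.99, against a median of -0.04 over windows, and 11 windows (0.840%) were as low or lower. For H3K27ac it had -1.57 against -0.22, and 37 windows (2.83%) were as low or lower. For H3K4me3 it had -0.998 against -0.18, with 20 windows (1.53%) as low or lower. For H3K4me2 it had -0.45 against 0.10, with 95 windows (7.26%). Both H3K36me3 and H3K27ac were as low in 6 windows. FOXA2 had 12 more peaks in SW620 than in SW480, and 205 windows (15.7%) had as large a difference or a larger one. Since the locus was chosen by this contrast, its place among the windows is a description.

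**Figure D5:**
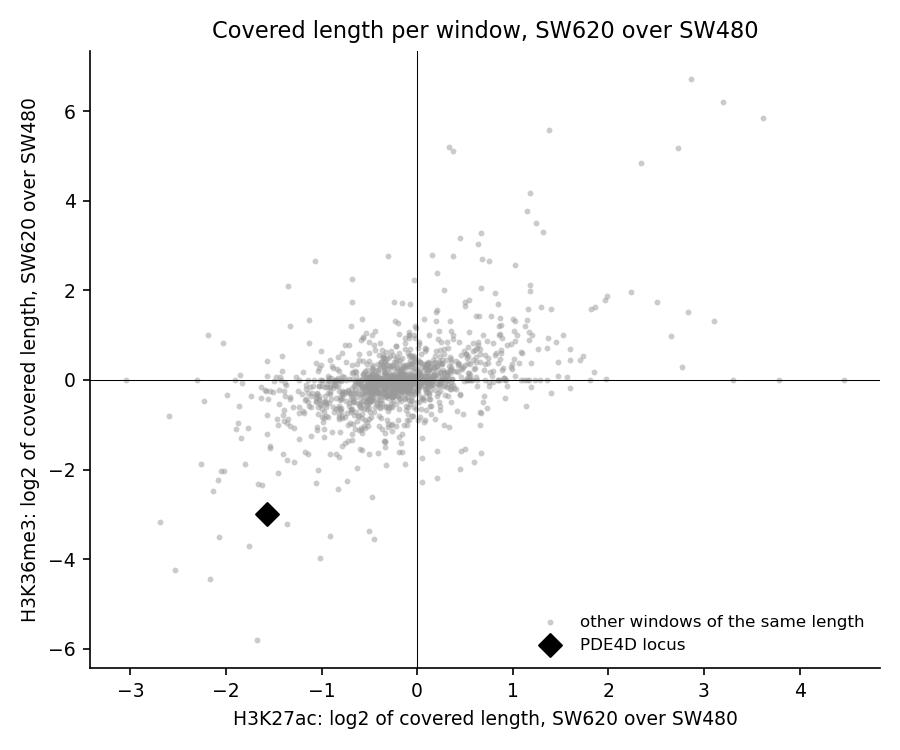
Log2 ratio of covered length, SW620 over SW480, for H3K36me3 (y axis) against H3K27ac (x axis) in 1309 windows of the length of the locus (grey points) and at the PDE4D locus (black diamond). The locus lies at -1.57 and -2.99, towards the lower left of the cloud.

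The amount of H3K36me3 in SW480 was ordinary for such a window and that in SW620 was low. The window medians were 68.5 kb in SW620 and 73.2 kb in SW480, where the locus had 7.24 kb in SW620 and 64.3 kb in SW480. Less was covered in 11.2% of windows in SW620 and in 47.9% in SW480. For H3K27ac the medians were 27.5 kb in SW620 and 32.9 kb in SW480, so the 30.9 kb of SW620 was near the median, and the 93.7 kb of SW480 exceeded 85.6% of windows.

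The windows most like the locus, by the Euclidean distance between the log2 ratios of the 4 histone marks, were on chromosomes 3, 13 and 8. The nearest, on chromosome 3 from 110976065 to 112710065, had a distance of 0.618, with 9.16 kb of H3K36me3 in SW620 and 93.8 kb in SW480. Its H3K27ac was 16.6 kb in SW620 and 44.1 kb in SW480, and FOXA2 was called 10 times in SW620 and 1 time in SW480. The next, on chromosome 13 from 26010016 to 27744016, had a distance of 0.772, with H3K36me3 over 20.2 kb in SW620 and 117 kb in SW480, and H3K27ac over 10.0 kb in SW620 and 47.2 kb in SW480. The one on chromosome 8 from 93636055 to 95370055 had a distance of 0.793, with H3K36me3 over 8.50 kb in SW620 and 47.2 kb in SW480, and H3K27ac over 15.9 kb in SW620 and 51.1 kb in SW480. FOXA2 did not enter the distance. It had 14 peaks in SW620 and 4 in SW480 on chromosome 13, and 11 in SW620 and 1 in SW480 on chromosome 8.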

How the data were processed

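The data were 10 lists of regions called in ChIP-seq libraries of SW620 and SW480, 1 library per line and antibody, in build hg19 per the submitters' processing notes. The authors called regions in each library against the input of the same line with HOMER findPeaks, per the file headers. For histone marks this was done in its histone style, with 1000 bp as region size and at least 4-fold over input and local background. FOXA2 used the factor style and at least 2-fold for both, and the false discovery rate was 0.001 throughout. Neither the aligner nor HOMER's version is given in the sources used here. The deposited score was 1 in every row, so it gave no strength per region. The other deposited values used were start and end positions. Total tags ran from 12791745 to 47867295, per the file headers.

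Here, regions overlapping the locus were taken, covered length was counted once where regions of a list overlap, and regions were compared between lines by an overlap of at least 1 bp. Counts of regions kept overlapping regions of a list apart. Python 3.11.15, numpy 2.4.6, pandas 2.3.3 and matplotlib 3.10.9 were used. Overlaps were checked against bedtools 2.31.1 and tested on simulated data. The locus and the lists were chosen with earlier results of these data known. The regions named were all H3K4me3 regions and FOXA2 peaks, the 5 widest H3K27ac regions and the widest H3K36me3 region of each line, others being chosen after their values were seen. The promoter stretches, CpG counts and motifs were also added after the files were seen. RefSeq promoters are on GRCh38.p14 and were not converted. Other genes of the cyclic AMP pathway and colon and liver marker genes were not placed on hg19 and are not analysed here, nor are input signal and copy number.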

Additional observations from a re-analysis of the deposited data

How the results depend on the processing

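No test was made, so alternatives were compared by size, and a value was taken as kept when it stayed within 1.5 times. Of 86 values recomputed, 69 stayed within that range and 17 did not. None of the values moved that far when the flanks were left out, when regions within 1 kb counted as shared, when clusters joined gaps of up to 5 or 20 kb, or when H3K4me3 of either line within 1 kb was counted.

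When shared regions had to overlap by at least 50% of the length of both, line-only counts in SW620 moved for 3 marks. They were 2 of 3 regions for H3K4me3, 8 of 11 for H3K27ac and 5 of 5 for H3K36me3. In SW480, 19 of 19 H3K36me3 regions were then line-only, so under this rule no H3K36me3 region of the locus was shared. Whole-list shares under this rule are not given. With lists of equal length, line-only H3K4me3 regions were 1 in SW620 and 1 in SW480, and SW620 FOXA2 had 3 first-listed peaks over 0.957 kb, in an order not known to follow strength. With regions of at least 2 kb, line-only regions in SW620 were 1 of H3K4me2 and 3 of H3K27ac, and in SW480 they were 1 of H3K4me3, 4 of H3K4me2, 5 of H3K27ac and 6 of H3K36me3. H3K4me2 then covered 21.8 kb in SW620 and 30.2 kb in SW480, and SW620 H3K36me3 covered 3.52 kb, or 0.232% of the gene. These settings leave fewer or harder-to-match regions by construction. With the 2 kb limit, some regions counted as line-only are shared in the main comparison, their partner being narrower than 2 kb. In SW620 they are the H3K4me2 region at 58592209 and the H3K27ac regions at 58534031 and 58591505. In SW480 they are the H3K4me2 region at 58185302 and the H3K36me3 regions at 58311422 and 58321486. No stricter call threshold could be set, since every score was 1. No paired analysis was possible because each group has 1 library. A line-only region may have narrowly missed the call in the line without it, and depth was unequal between the lines.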
